A study of Rattus norvegicus with 3 samples.

Results

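The cell cycle and DNA replication genes described here were 37 genes chosen by name, with earlier results of these data known. They were 11 genes of DNA replication, 19 genes of mitosis and 7 regulators of the cycle. Of these, 32 were measured by a probe set that the platform annotation assigns to a single gene, out of 14506 genes measured in the same way, and Mcm3, Mcm4, Cenpe, Cenpf and Mki67 were not analysed here. The measurements came from rat tibialis anterior muscle taken 8 days after electroporation of the muscle with plasmid DNA. The 3 groups received 150 µg of pENTR-CMV-Plin2, of pcDNA3.1-CMV-Plin5 or of pcDNA3.1 without an insert (empty vector). Plin2 (ADRP) and Plin5 (OXPAT) are proteins that coat lipid droplets, and in both insert plasmids the viral CMV promoter, which is active in many cell types, drove the insert. All 3 groups were male Wistar rats, 11 weeks old, fed a high fat diet (45% of energy from fat) for 3 weeks, with the plasmid given after 2 of those weeks. The plasmid went into the left or the right leg at random, and the sham-electroporated opposite leg was not analysed here. Each group was 1 array of RNA pooled from 6 rats, so no spread between animals could be measured and no difference below was tested. The Plin2 plasmid had another backbone than the remaining plasmids, so insert and backbone cannot be told apart on that array.

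Cells divide in an ordered cycle in which the genome is first copied and the copies are then separated. Replication genes are switched on before the copying phase by the E2F family of transcription factors, and mitosis genes are switched on later, largely through a promoter element called the cell cycle genes homology region (CHR), often next to CCAAT boxes bound by NF-Y. Mature muscle fibres have left the cycle for good, and in injured muscle the dividing cells are known to be mainly satellite cells and their myoblast offspring, immune cells, fibroblasts and endothelial cells. In whole muscle RNA, fewer cells of a type and less RNA per cell cannot be told apart.

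All values are log2 expression levels as the authors deposited them, so a difference of 1 is a doubling. Medians over all 29214 probe sets were 6.40 on the Plin2 array, 6.37 on the Plin5 array and 6.38 on the empty vector array. All 32 measured members had a mean level above the dim limit of 5.34, the 25th percentile of all genes, and 10879 genes passed it. The muscle fibre markers included Myh4, Ckm, Acta1 and Ttn, and all 12 of that list passed this limit too. Levels of different genes come from different probes and are not compared with each other.

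The promoters show how the replication and mitosis genes differ in sequence. The RefSeq promoter table (build GRCr8) held 29 of the 37 genes, each as a window of 300 bases that runs from 250 bases before the gene start to 50 after it. The windows were searched on both strands, with overlaps counted, for 4 spellings of the E2F site (TTTCCCGC, TTTGGCGC, TTTCGCGC and TTTGCCGC), for the CHR (TTTGAA) and for the CCAAT box (CCAAT). The 150 bases before the gene start are printed for 3 replication genes and 3 mitosis genes, with every match in capitals. Mcm2 and Mcm6 are shown because they were among the replication genes with a large difference on the Plin2 array. Mcm7 is shown because it also holds E2F sites, though at other positions and without overlap, and barely differed. Cdk1, Ccnb2 and Top2a are shown for the CHR. They lie at chr4:122918095-122918244 (Mcm2, minus strand), chr13:42404353-42404502 (Mcm6, minus strand), chr12:22163179-22163328 (Mcm7, minus strand), chr20:19265143-19265292 (Cdk1, plus strand), chr8:79981659-79981808 (Ccnb2, minus strand) and chr10:84473094-84473243 (Top2a, minus strand).
Mcm2: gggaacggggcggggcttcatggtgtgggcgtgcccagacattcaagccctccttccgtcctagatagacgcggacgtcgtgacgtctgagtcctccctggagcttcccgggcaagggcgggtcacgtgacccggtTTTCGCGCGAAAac
Mcm6: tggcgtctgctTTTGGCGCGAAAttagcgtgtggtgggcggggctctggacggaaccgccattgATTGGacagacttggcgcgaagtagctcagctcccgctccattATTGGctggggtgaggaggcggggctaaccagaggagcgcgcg
Mcm7: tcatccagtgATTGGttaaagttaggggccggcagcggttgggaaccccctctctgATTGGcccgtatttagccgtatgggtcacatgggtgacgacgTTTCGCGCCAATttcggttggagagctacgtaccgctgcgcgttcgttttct
Cdk1: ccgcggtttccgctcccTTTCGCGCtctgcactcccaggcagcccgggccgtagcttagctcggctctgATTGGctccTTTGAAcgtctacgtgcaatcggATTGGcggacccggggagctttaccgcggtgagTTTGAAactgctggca
Ccnb2: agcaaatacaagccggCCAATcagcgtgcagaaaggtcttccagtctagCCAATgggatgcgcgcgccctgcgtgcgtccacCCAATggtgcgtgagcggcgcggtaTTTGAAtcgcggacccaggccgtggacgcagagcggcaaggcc
Top2a: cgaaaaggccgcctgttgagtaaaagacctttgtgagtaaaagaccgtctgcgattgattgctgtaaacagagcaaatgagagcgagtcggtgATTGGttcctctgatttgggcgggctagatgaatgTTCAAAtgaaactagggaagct

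Of the 8 replication promoters in the table, 6 held an E2F site, namely those of Mcm2, Mcm3, Mcm5, Mcm6, Mcm7 and Tyms, and 1 of the 18 mitosis promoters did (Cdk1). Among all 33469 promoter windows of the table, which holds several for genes with several starts, 2.14% held one. With 1 window per gene, as for the members, 3.76% of the 8998 genes above the dim limit held one. In Mcm2, Mcm5 and Mcm6, E2F matches on opposite strands overlapped, which can be seen in the Mcm2 and Mcm6 sequences above. The CHR was found in 12 of the 18 mitosis promoters and in 1 of the 8 replication promoters (Mcm2, with both copies outside the stretch printed). It was found in 18.3% of all windows and in 11.7% of the genes above the dim limit. CCAAT boxes were found in 14 mitosis and 6 replication promoters, against 37.5% of all windows and 37.6% of the genes above the dim limit. None of the 3 motifs was found in the windows of Ccne1 and Cdkn1a, 2 of the 3 regulators in the table, which says only that these letters are not in those windows.

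**Figure D1:**
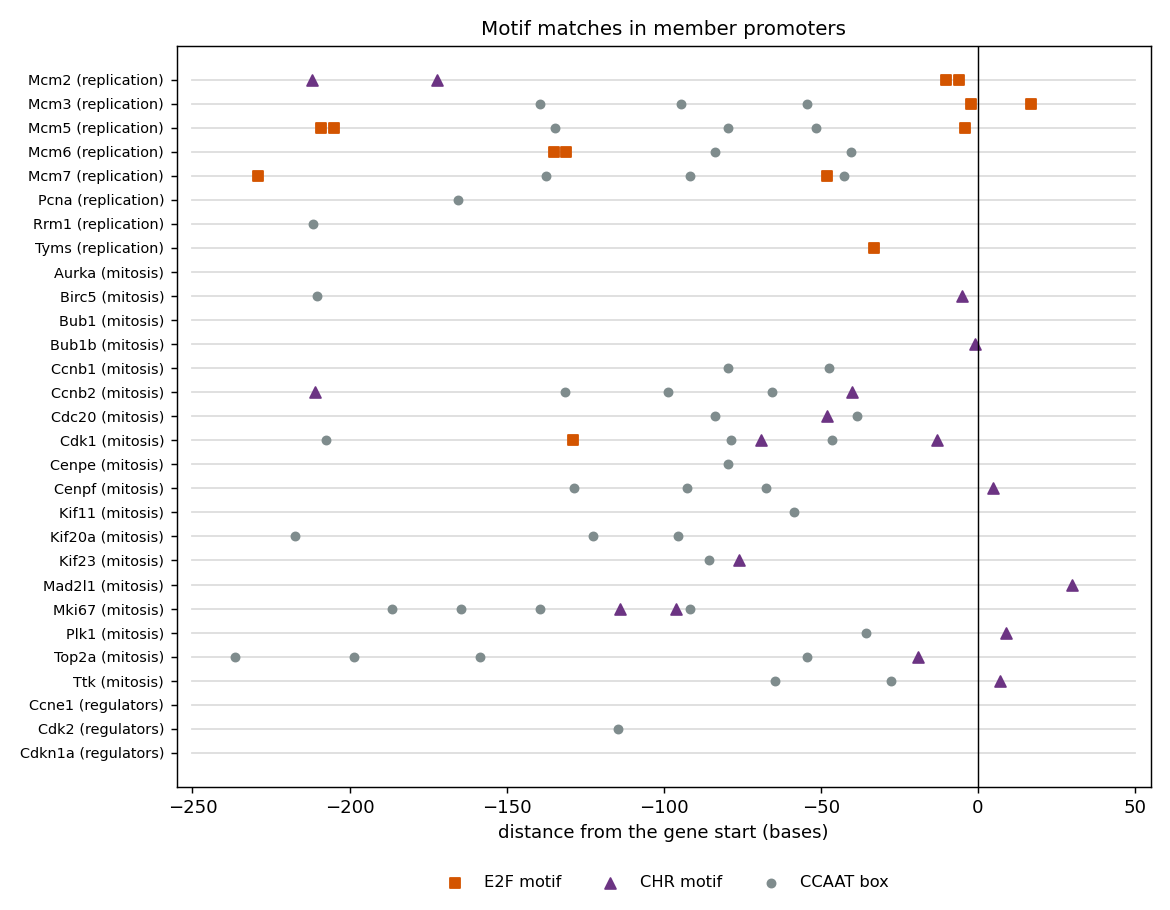
Positions of E2F, CHR and CCAAT matches in the promoters of 29 member genes. The x axis gives the distance from the gene start in bases, each grey line is 1 promoter, and each symbol is 1 match on either strand. E2F squares lie almost entirely in the replication rows (6 of 8 promoters) and CHR triangles mostly in the mitosis rows (12 of 18).

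On the array of Plin2 muscle, the 32 measured members were higher than on the empty vector array as a group. They were chosen with earlier results of these data known, so the counts below describe the list and do not test it. The median difference over the 32 members was 0.48 log2 units (1.40-fold), and 11 members were higher by at least 1.5-fold, while 0 were lower by that much. Among all 10879 genes the median difference was 0.00, 8.84% were at least 1.5-fold higher and 5.80% at least 1.5-fold lower. All 32 members stood above the empty vector array, against 38.3% of all genes, although Mcm7, Tyms, Aurka and Cdk2 lay below it after every array had been centred on the median of its genes, and Mcm7 and Tyms after a further quantile normalization. None of the members had exactly equal values on these arrays, against 30.0% of all genes. Centring brought the median difference over the members to 0.40 and left 6 of the 11 members past 1.5-fold (Mcm5, Mcm6, Rrm2, Plk1, Top2a and Cdkn1a). Among all genes centring changed the counts past 1.5-fold to 775 higher and 819 lower, against 962 and 631 as deposited.

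**Figure D2:**
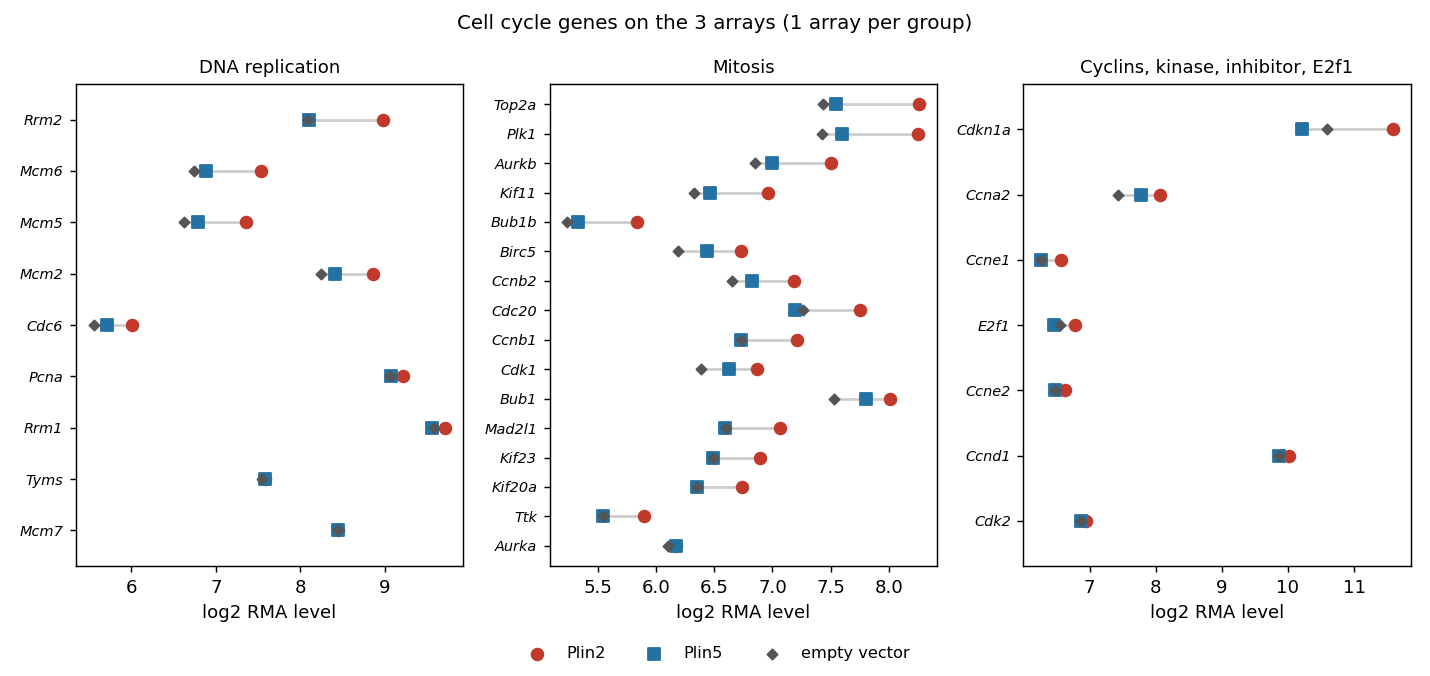
Log2 expression level of each of the 32 measured members on the Plin2, Plin5 and empty vector arrays, 1 point per array, ordered within each role by the Plin2 difference. The Plin2 point is the highest of the 3 for 29 members, and the x position of different genes is not comparable because each gene has its own probes.

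Among the replication genes, the subunits of the MCM helicase, which unwinds DNA at the replication fork, split into members that differed and one that did not. Mcm6 had a log2 level of 7.54 in Plin2 muscle and 6.88 in Plin5 muscle, against 6.74 in empty vector muscle. Mcm5 had 7.36 in Plin2 muscle and 6.79 in Plin5 muscle, against 6.62 in empty vector muscle. Mcm2 had 8.86 in Plin2 muscle and 8.41 in Plin5 muscle, against 8.25 in empty vector muscle. In these 3 subunits the Plin2 array stood highest and the Plin5 array slightly above the empty vector array. Their Plin2 differences were 0.79 (1.73-fold), 0.73 (1.66-fold) and 0.61 (1.53-fold). Mcm7, a subunit of the same complex, stood at 8.44 on all 3 arrays, with a Plin2 difference of 0.00. Its Plin2 and Plin5 values were exactly equal, as were those of 27.0% of all genes. Whether RMA, which returns equal values for many genes, hid a difference was not tested. The Mcm7 promoter carries E2F sites as those of Mcm2, Mcm5 and Mcm6 do.

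The genes that supply DNA precursors split in a similar way. Ribonucleotide reductase makes deoxyribonucleotides from ribonucleotides, and its small subunit Rrm2 stood at 8.97 in Plin2 muscle and 8.10 in Plin5 muscle, against 8.09 in empty vector muscle. The Rrm2 difference on the Plin2 array was 0.89 (1.85-fold), whereas the large subunit Rrm1 differed by 0.14, with 9.71 in Plin2 muscle, 9.56 in Plin5 muscle and 9.57 in empty vector muscle. The subunits of this enzyme therefore differed unequally. A second probe set of Rrm2 gave 0.75 and a second one of Rrm1 gave 0.15, the last at levels of 4.42 in Plin2 muscle and 4.27 in empty vector muscle, under the dim limit. Tyms (thymidylate synthase, which makes thymidylate) stood at 7.59 in Plin2 and Plin5 muscle, against 7.54 in empty vector muscle. Pcna, the sliding clamp of DNA polymerase, stood at 9.21 in Plin2 muscle and 9.07 in Plin5 muscle, against 9.06 in empty vector muscle. Cdc6, which loads the helicase onto origins, lay between these, with 6.01 in Plin2 muscle and 5.72 in Plin5 muscle, against 5.56 in empty vector muscle, a Plin2 difference of 0.45.

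The mitosis genes differed more evenly. Of 16 measured, 15 were higher on the Plin2 array by at least 1.2-fold, against 19.4% of all genes, and 5 by at least 1.5-fold, against 8.84%. The largest differences were those of Top2a, the topoisomerase that untangles chromosomes, and of the kinase Plk1, which acts at several steps of mitosis. Top2a stood at 8.26 in Plin2 muscle and 7.54 in Plin5 muscle, against 7.44 in empty vector muscle, a Plin2 difference of 0.82 (1.77-fold). Plk1 stood at 8.25 in Plin2 muscle and 7.60 in Plin5 muscle, against 7.43 in empty vector muscle, also a Plin2 difference of 0.82 (1.76-fold). For both genes the Plin5 array lay close to the empty vector array.

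The chromosomal passenger complex corrects the attachment of chromosomes to the spindle, and its kinase Aurkb was higher on the Plin2 array by 0.65, with 7.50 in Plin2 muscle and 6.99 in Plin5 muscle, against 6.85 in empty vector muscle. Its survivin subunit Birc5 stood at 6.73 in Plin2 muscle and 6.44 in Plin5 muscle, against 6.19 in empty vector muscle, a Plin2 difference of 0.55. Aurka, the related kinase of the spindle poles, was the mitosis gene with the smallest difference, 0.07, and stood at 6.17 on the Plin2 and Plin5 arrays, against 6.11 on the empty vector array. The kinesin motors of mitosis were higher on the Plin2 array as well, Kif11 by 0.64 and Kif23 and Kif20a, which act in cell separation, by 0.41 and 0.39. Kif11, which pushes the spindle poles apart, stood at 6.96 in Plin2 muscle and 6.46 in Plin5 muscle, against 6.33 in empty vector muscle.

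The genes of the spindle checkpoint, which holds back chromosome separation until all chromosomes are attached, lay close together. Their Plin2 differences were 0.60 for Bub1b, 0.48 for Bub1, 0.47 for Mad2l1 and 0.35 for the kinase Ttk. Bub1b stood at 5.83 in Plin2 muscle, and its levels of 5.33 in Plin5 muscle and 5.24 in empty vector muscle were under the dim limit, so the size of its difference is uncertain. The mitotic kinase Cdk1 and its partners were similar: Cdk1 differed by 0.48, Ccnb1 (cyclin B1) by 0.49, and Ccnb2 (cyclin B2) by 0.54. A second probe set of Ccnb2 gave 0.59, on the other side of the 1.5-fold limit. Cdc20, which activates the ubiquitin ligase that ends mitosis, differed by 0.50, with 7.76 in Plin2 muscle and 7.19 in Plin5 muscle, against 7.26 in empty vector muscle. Around the 1.5-fold limit of 0.58 log2 units the nearest members were Bub1b and Mcm2 inside it and Birc5 and Ccnb2 outside it.

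**Figure D3:**
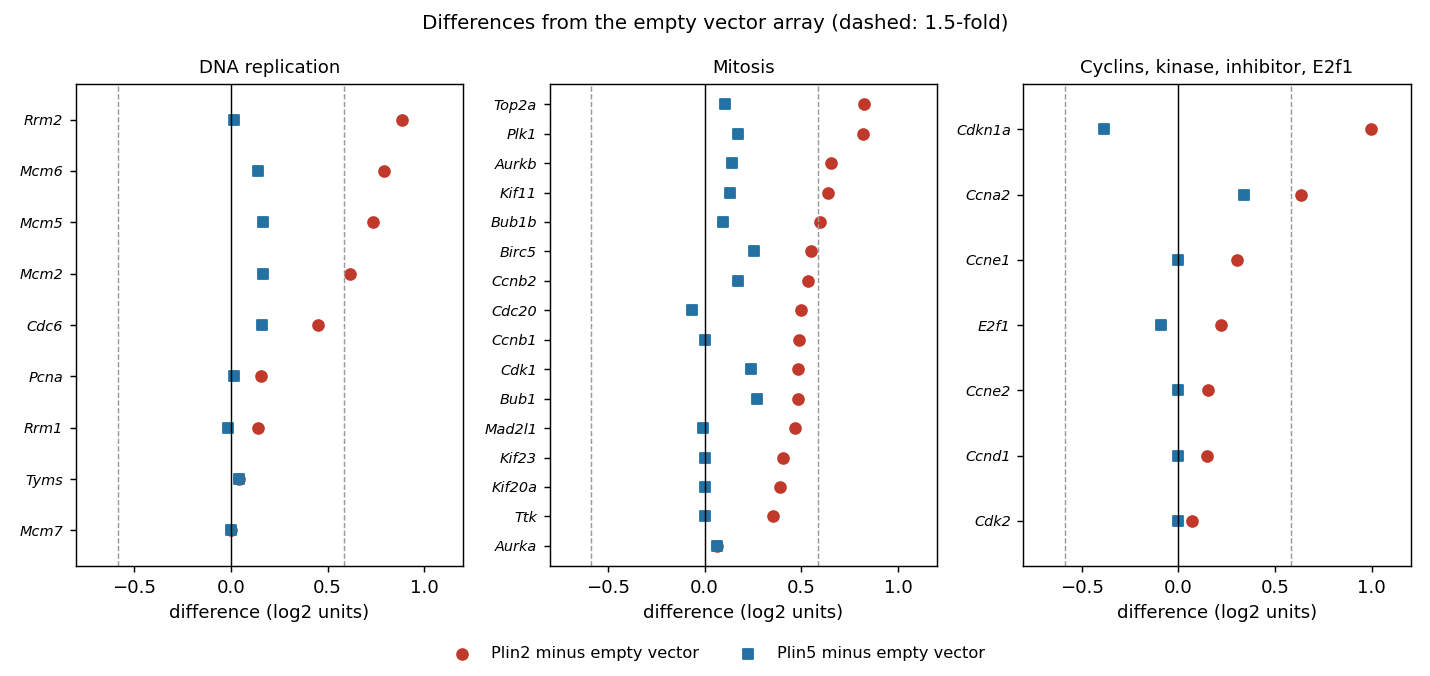
Differences from the empty vector array in log2 units for the 32 measured members, circles for Plin2 and squares for Plin5, with dashed lines at 1.5-fold. Of the Plin2 circles 11 lie past the right-hand line, the replication genes are spread from 0.00 to 0.89 and the mitosis genes from 0.07 to 0.82, and no Plin5 square reaches either line.

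Set against each other, replication and mitosis genes had nearly the same median on the Plin2 array. The median difference was 0.45 for the 9 replication genes and 0.49 for the 16 mitosis genes, so that replication minus mitosis was −0.04. The replication genes included 4 past 1.5-fold (Mcm2, Mcm5, Mcm6 and Rrm2) and 4 under 1.2-fold (Mcm7, Tyms, Rrm1 and Pcna), and the mitosis genes included 1 under 1.2-fold (Aurka). When only genes above the median level of all genes were kept, 6 replication and 4 mitosis genes remained and replication minus mitosis became −0.51, with Cdc6, Mcm5 and Mcm6 among the genes left out.

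The regulators differed least as a group, with a median of 0.22 over 7 genes on the Plin2 array, but they held the member with the largest difference. Cdkn1a encodes p21, an inhibitor of cyclin-dependent kinases that stops the cycle and also accompanies the exit of myoblasts from it. It stood at 11.59 in Plin2 muscle and 10.20 in Plin5 muscle, against 10.59 in empty vector muscle. The Plin2 array was thus highest and the Plin5 array lowest, with differences of 1.00 and −0.38 from the empty vector array. Ccna2 (cyclin A2), which acts in replication and on entry into mitosis, stood at 8.07 in Plin2 muscle and 7.78 in Plin5 muscle, against 7.44 in empty vector muscle, with differences of 0.63 and 0.34.

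The cyclins and kinase of the step before replication differed less. On the Plin2 array Ccne1 (cyclin E1) was higher by 0.30, Ccne2 (cyclin E2) by 0.15, Ccnd1 (cyclin D1) by 0.15 and Cdk2, the kinase that the E cyclins activate, by 0.07. All 4 had exactly equal values on the Plin5 and empty vector arrays. E2f1, which activates replication genes, stood at 6.77 in Plin2 muscle and 6.46 in Plin5 muscle, against 6.55 in empty vector muscle, a Plin2 difference of 0.22.

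On the array of Plin5 muscle, the cell cycle genes lay close to the empty vector array. The median difference over the 32 members was 0.03, and 0 members were higher or lower by at least 1.5-fold, where 0.221% of all genes were higher and 1.42% lower. Above the empty vector array stood 20 members, against 25.8% of all genes, 5 stood below it, against 34.0% of all genes, and 7 had exactly equal values, against 40.2% of all genes. After centring, 29 stood above it and 3 below, where 75.5% of all genes stood above it, since genes with equal values then do so too. At 1.2-fold the members past the limit were Ccna2 (0.34) and Bub1 (0.27), both higher, against 1.52% of all genes, and Cdkn1a (−0.38), lower, against 5.71%.

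The mitosis genes had a Plin5 median of 0.10 and the replication genes one of 0.04, a replication minus mitosis difference of −0.06. Bub1, a checkpoint kinase at the kinetochore, stood at 8.01 in Plin2 muscle and 7.80 in Plin5 muscle, against 7.53 in empty vector muscle. Cdk1 stood at 6.87 in Plin2 muscle and 6.63 in Plin5 muscle, against 6.39 in empty vector muscle. In these genes, as in Birc5 and Ccna2, the Plin5 array lay between the others, which was the case for 17 of the 32 members. The Plin2 and Plin5 differences share the empty vector array, so their likeness is not a result.

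Between the Plin5 and Plin2 arrays directly, 29 members were lower in Plin5 muscle, against 40.2% of all genes, and 3 (Mcm7, Tyms and Aurka) were exactly equal, against 27.0% of all genes. The median difference over the members was −0.36, and 22 members were at least 1.2-fold lower, against 22.0% of all genes. At least 1.5-fold lower were 5 members, against 11.3% of all genes, namely Cdkn1a (−1.38), Rrm2 (−0.87), Top2a (−0.72), Mcm6 (−0.65) and Plk1 (−0.65). None was at least 1.5-fold higher, against 7.19% of all genes. The array medians of all genes differed by −0.12 in this comparison, and centring left 3 members lower by at least 1.5-fold, where 979 of 10879 genes were lower and 1109 higher by that much, against 1225 and 782 as deposited. A further quantile normalization also left 3 members, where 10.4% of all genes were lower. After either rescaling the count of members lies near the share of all genes.

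Other genes of the same processes, in lists drawn up by function, had smaller median differences on the Plin2 array than the members. Like the members, these lists were written with earlier results of these data known. The 42 other replication genes included the origin recognition complex, the GINS proteins, the polymerases and the clamp loader. Of these, 0 were past 1.5-fold either way, against 8.84% of all genes higher and 5.80% lower. Above the empty vector array stood 26, against 38.3% of all genes, and the median difference was 0.11. Of 39 other mitosis genes, 5 (12.8%) were at least 1.5-fold higher and 0 lower, not far from the 8.84% of all genes that were higher. In that list 33 stood above the empty vector array and the median was 0.18. The highest of these were the chromosome motor Kif4a (0.67), Plk4 (0.66), which drives centriole duplication, and securin, Pttg1 (0.64). The members' median of 0.48 therefore does not describe the cell cycle genes of the array at large.

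Of 24 other regulators, 2 (8.33%) were at least 1.5-fold higher and 2 (8.33%) lower on the Plin2 array, with a median of 0.14. Among all genes 8.84% were higher and 5.80% lower by that much, so these counts lie near the shares of all genes. E2f8, a repressor of the E2F family, stood at 7.93 in Plin2 muscle and 7.17 in Plin5 muscle, against 7.17 in empty vector muscle. E2f5, another repressor of that family, stood at 8.27 in Plin2 muscle and 7.29 in Plin5 muscle, against 7.55 in empty vector muscle. The lower pair were Tfdp2, a partner of E2F proteins, at 8.75 in Plin2 muscle and 9.53 in Plin5 muscle, against 9.50 in empty vector muscle, and E2f3, an activator, at 7.88 in Plin2 muscle and 8.78 in Plin5 muscle, against 8.57 in empty vector muscle. Members of the E2F family thus lay on either side of the empty vector array.

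Cdkn1a is a well-known target of p53, and 13 further p53 target genes were measured beside it. Their median difference was 0.00 on both the Plin2 and the Plin5 array. On the Plin2 array 0 of them were past 1.5-fold, against 8.84% of all genes higher and 5.80% lower. There 4 stood above the empty vector array, 4 below it and 5 were exactly equal, with differences between −0.54 and 0.37. Among all genes 38.3% stood above it, 31.7% below it and 30.0% were exactly equal, so these counts lie near the shares of all genes. On the Plin5 array 1 of the 13 was at least 1.5-fold lower, against 1.42% of all genes. It was Gadd45a, a growth arrest gene, with 10.11 in Plin2 muscle and 9.15 in Plin5 muscle, against 9.74 in empty vector muscle.

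Several lists of cell type markers also differed between the arrays. Of 15 measured macrophage markers, 14 were at least 1.5-fold higher on the Plin2 array, against 8.84% of all genes. The summed linear level of the 15 was 32218 in Plin2 muscle and 11955 in Plin5 muscle, against 15146 in empty vector muscle. Of 16 measured T and natural killer cell markers 12 were higher by that much, with sums of 11751 in Plin2 muscle and 5585 in Plin5 muscle, against 5860 in empty vector muscle. These sums include Cd4, which in rats is also expressed by macrophages. Cd4 stood at 11.67 in Plin2 muscle and 10.75 in Plin5 muscle, against 11.16 in empty vector muscle, and weighs heavily in the sums. Of 8 measured myoblast markers 6 were at least 1.5-fold higher, with sums of 12762 in Plin2 muscle and 5445 in Plin5 muscle, against 7056 in empty vector muscle. The myoblast list includes Myh3, Chrng and Ncam1, which are not particular to myoblasts and can be expressed in fibres. Ncam1 (11.93 in Plin2 muscle) and Myh3 (11.65) weigh heavily in its sum, so the sum is no measure of dividing myoblasts. All measured markers of these 3 lists were above the dim limit. On the Plin2 array these 3 lists were therefore higher beside the cell cycle genes, with medians of 1.12, 0.91 and 0.85.

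On the Plin5 array the medians of these 3 marker lists were −0.47, −0.15 and −0.35, while the members' median was 0.03. Single markers stood on both sides of the empty vector array. Of the 15 macrophage markers 3 were above it and 6 at least 1.5-fold lower, against 1.42% of all genes. All 8 myoblast markers were below it, 2 of them by at least 1.5-fold. Of the 16 T and natural killer cell markers 5 were above it, and the granzymes Gzma (1.25) and Gzmb (0.79) were at least 1.5-fold higher, Gzma with the highest difference of all 10879 genes. Fibroblast markers had a median of 0.22 on the Plin2 array (1 of 9 at least 1.5-fold higher) and −0.15 on the Plin5 array, and endothelial markers had medians of 0.00 and 0.07. Of the B cell list 3 genes passed the dim limit and 1 of them (Blnk) was at least 1.5-fold higher on the Plin2 array. Tendon markers had medians of −0.32 on the Plin2 array and −1.10 on the Plin5 array. On the Plin5 array 4 of these 6 were at least 1.5-fold lower, against 1.42% of all genes. The 6 erythroid markers above the dim limit had medians of −0.41 and −0.10. All 12 muscle fibre markers were below the empty vector array on the Plin2 array, with a median of −0.16. The part of these cell types in the cell cycle differences was not tested.

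**Figure D4:**
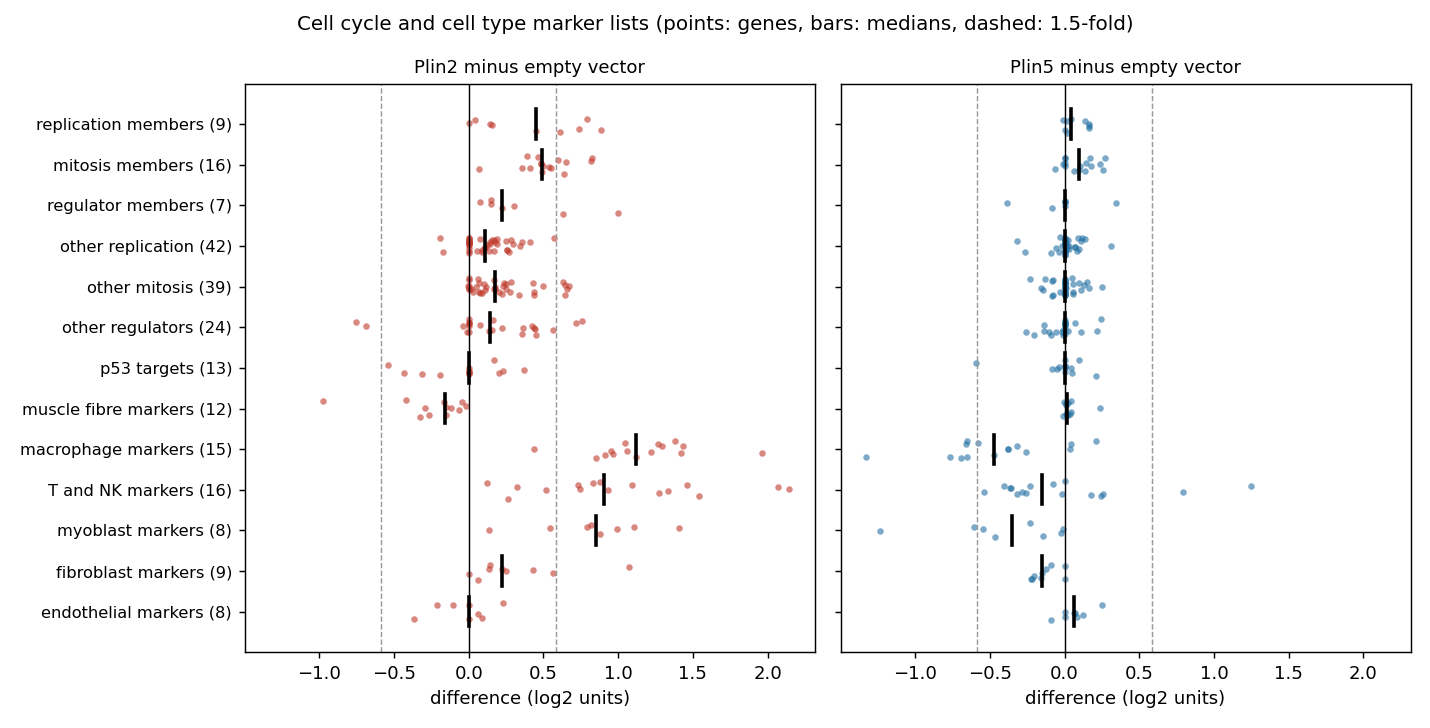
Differences from the empty vector array in log2 units for each gene of the member groups, of other cell cycle lists and of cell type marker lists, with Plin2 on the left and Plin5 on the right; bars are list medians, dashed lines mark 1.5-fold and gene numbers are in parentheses. On the left the member medians (0.45, 0.49 and 0.22) lie above those of the other cell cycle lists (0.11, 0.18 and 0.14) and below those of the macrophage, T and natural killer and myoblast markers; on the right the medians of those marker lists lie below 0, with 3 macrophage and 5 T and natural killer cell markers above it.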

How the data were processed

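The authors deposited log2 expression values made with RMA (robust multi-array average), per the submitters' processing notes; no version is named, and for the chip description and the genome build the sources used here give nothing. The log base is not stated and was taken from the range of the values. Per the labels' protocols, RNA of 6 rats per group was pooled. Median polish in RMA returns equal values for many genes, and 30.0% of genes were exactly equal, as deposited, on the Plin2 and empty vector arrays.

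Of 29214 probe sets, 15310 have 1 gene symbol, 323 several and 13581 none listed; only the first kind was used. The probe set with the highest mean was kept per gene (527 genes had several), and genes with a mean under the 25th percentile were left out. With 1 array per group there was no test: differences of log2 values were counted at 1.5-fold. Summed levels add the values after conversion to the linear scale. The members and lists were chosen with earlier results of these data known. All members could be named, with up to 3 genes each way past 1.5-fold from the other cell cycle lists. In the lists, 3 symbols were matched through a synonym. Promoter sequences are from RefSeq (GRCr8) and were matched by gene symbol, with the first window listed used for each gene. Counting was tested on simulated differences. Scripts ran under Python 3.11.15 with pandas 2.3.3, numpy 2.4.6 and matplotlib 3.10.9.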

Additional observations from a re-analysis of the deposited data

How the results depend on the processing

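Of 84 values that alternative settings gave for 12 results, 71 stayed within 0.1 log2 units or, for counts, within 1.5 times of the value reported, 13 did not, and 0 changed direction by more than that. Members called higher on the Plin2 array against the empty vector numbered 23 at 1.2-fold, against 19.4% of all genes, and 6 after centring, against 7.12%. They numbered 0 at 2-fold and 6 of 13 with the dim limit at the median gene. The share of all genes was not computed at 2-fold or with that dim limit. Against the empty vector, the Plin5 array had 2 members higher and 1 lower at 1.2-fold, against 1.52% and 5.71% of all genes. Members lower on the Plin5 than on the Plin2 array numbered 22 at 1.2-fold, 1 at 2-fold, 3 after centring and 3 after quantile normalization, and their median became −0.23 after centring. With the dim limit at the median gene, the replication median minus the mitosis median was −0.51 for Plin2 against the empty vector and 0.46 for Plin5 against Plin2. The genes kept were then Mcm2, Mcm7, Pcna, Rrm1, Rrm2 and Tyms for replication and Cdc20, Bub1, Plk1 and Top2a for mitosis. Their Plin2 medians were 0.15 and 0.66. No paired analysis was possible because each group has 1 array. Precision is limited by the number of arrays, and members near the dim limit, such as Bub1b, have the least certain differences.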

Other observations

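The promoters of the other cell cycle genes were searched for the same motifs. Of 43 promoters of other replication genes 19 held an E2F site and 6 the CHR, and of 53 promoters of other mitosis genes 1 held an E2F site and 34 the CHR. Among the promoters of 8998 genes above the dim limit, 3.76% held an E2F site and 11.7% the CHR. Within the 25 measured members in the promoter table, the Plin2 differences of the 11 with a CHR ran between 0.35 (Ttk) and 0.82 (Top2a) with a median of 0.54, and those of the 14 without one between 0.00 (Mcm7) and 1.00 (Cdkn1a) with a median of 0.35. The ranges overlap, and the 6 with an E2F site span 0.00 (Mcm7) to 0.79 (Mcm6). Their median was 0.55, against 0.48 for the 19 without an E2F site. The 14 without a CHR include replication genes and regulators such as Mcm7, Tyms and Cdk2, so this comparison mixes motif with role. They also include the mitosis genes Kif11 (0.64), Ccnb1 (0.49), Bub1 (0.48), Kif20a (0.39) and Aurka (0.07). A comparison within the mitosis genes alone was not made. A match of letters is a description of the sequence and not of binding.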
